A study of Caenorhabditis elegans with 6 samples.

Results

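The 10 genes described here encode the ligands, receptors and nearest partners of the epidermal growth factor (EGF) and fibroblast growth factor (FGF) pathways of Caenorhabditis elegans. They are lin-3, let-23, egl-15, egl-17, let-756, sem-5, sos-1, ptp-2, clr-1 and gap-1, and they were chosen by gene name. All 10 were found among the 22416 genes with counts, each as 1 row, and all 10 passed the filter on low counts.

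RNA was sequenced from 6 pools of whole worms of strain CL2006, whose genotype label is unc-54p::Abeta, on day 6 of adulthood. The unc-54 promoter drives the amyloid-β peptide in body wall muscle, and both groups carry this transgene, so there was no worm without amyloid-β in the comparison. Worms were raised at 20 °C on EV bacteria, which carry an empty RNAi vector, until the L4 larval stage. From then on 3 pools stayed on EV (EV control) and 3 were moved to bacteria for nol-56 RNAi. Progeny were removed by daily transfer. The comparison asks how lowering nol-56, a nucleolar protein gene, alters expression, and the title of the study names the TGF-β/ERK axis. EGF and FGF receptors act upstream of ERK.

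LIN-3 is the EGF ligand of the worm and LET-23 its receptor tyrosine kinase. The pathway is known for inducing the vulva in larvae and for ovulation in adults, where LIN-3 from the germline acts on the contractile somatic gonad. EGL-17 and LET-756 are FGF ligands of the receptor EGL-15, known for guiding migrating sex myoblasts and for fluid balance. Both receptors recruit the adaptor SEM-5 and the exchange factor SOS-1, which loads the Ras protein LET-60 with GTP, while PTP-2 promotes signalling, CLR-1 opposes EGL-15 and GAP-1 opposes Ras.

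The libraries held 21138955 to 34841215 counts each. The nol-56 transcript stood at 253 to 270.2 CPM (reads of a gene scaled to a common library total) in EV control and at 15.7 to 20.8 CPM on nol-56 RNAi, so the targeted gene followed the labels in all 6 libraries. The labels do not state that the 3 pools of a group were separate cultures, so the spread that p-values measure may be technical. Markers of germline, neurons, body wall muscle, epidermis, intestine, gonad sheath and spermatheca, and vulva and uterus were all detected, each marker gene with reads in at least 1 library.

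On nol-56 RNAi, 4 of the 10 transcripts rose and 4 fell. Those that rose were let-756, let-23, egl-15 and gap-1, by 1.8-fold to 2.41-fold. Those that fell were ptp-2, clr-1, lin-3 and sos-1, by 1.37-fold to 3.33-fold. sem-5 and egl-17 did not pass the test. These 8 calls stand against a background of 88% of all 14677 genes tested, with 47.2% higher and 40.8% lower, so that the share of the 10 genes called was near that of all genes. Their median log2 fold change was 0.05 against 0.16 for all genes tested, and the median size of the change was 0.88 against 0.82. Calls are from edgeR's quasi-likelihood test with Benjamini-Hochberg adjustment over all genes tested (two-sided, threshold 0.05), with changes expressed relative to EV control. In pools of whole worms, fewer cells of a type and less RNA per cell cannot be told apart. In the same libraries the summed level of 18 germline markers was 0.469 times that of EV control and the sum of 13 neuron markers 2.03 times.

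**Figure D1:**
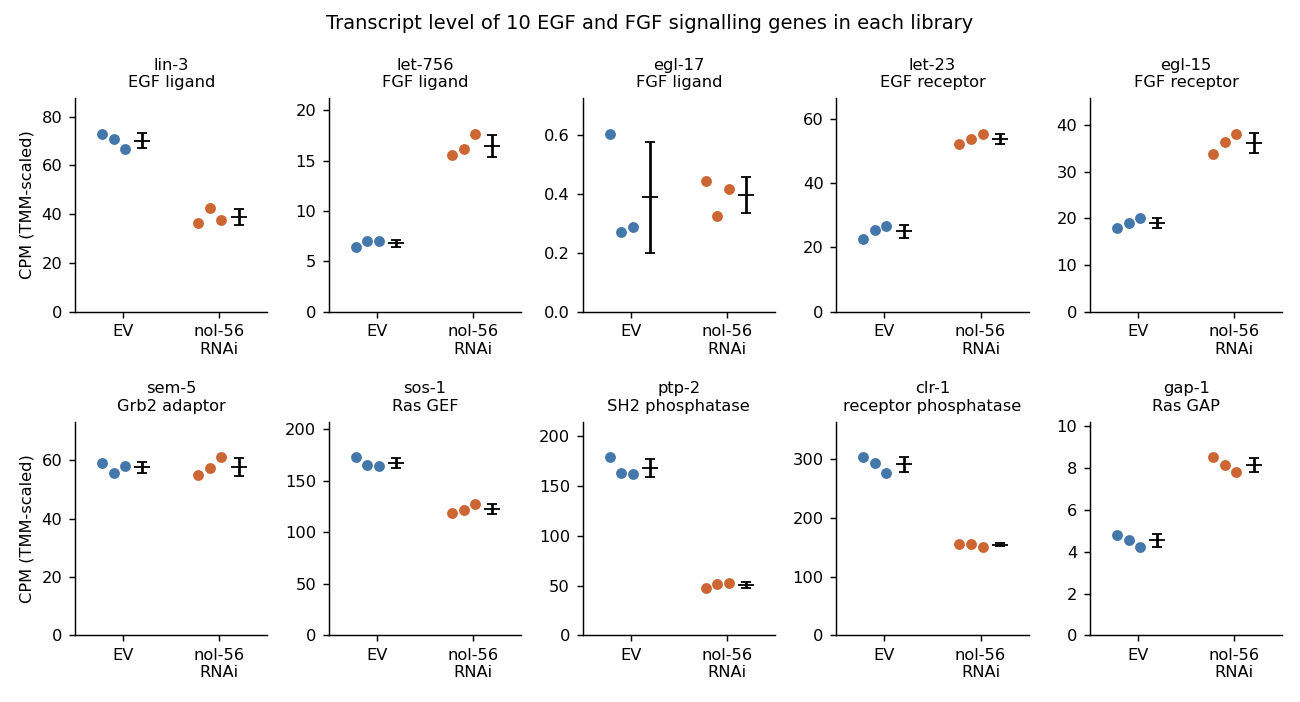
Level of each of the 10 transcripts in CPM (linear axis from 0) in every library, with 3 points per group and the mean and SD beside them. The groups are apart for 8 genes and overlap for egl-17 and sem-5. Over all 14677 genes tested the groups are apart for 88%.

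The EGF ligand and its receptor moved in opposite directions. lin-3 stood at 73.1, 70.7 and 66.8 CPM in EV control libraries 1 to 3 and at 36.6, 42.4 and 37.7 CPM on nol-56 RNAi. All 3 nol-56 RNAi libraries were below all 3 controls, and the mean went from 70.2 ± 3.17 to 38.9 ± 3.11 CPM (SD, n = 3 per group). On the log2 scale lin-3 fell by 0.85 (standard error 0.06; adjusted p = 2.49e-12, edgeR). The receptor gene let-23 stood at 22.6, 25.5 and 26.7 CPM in EV control and at 52.2, 53.6 and 55.4 CPM on nol-56 RNAi. Every nol-56 RNAi library lay well above every control, a 2.14-fold rise without overlap. The rise was 1.1 on the log2 scale (standard error 0.06; adjusted p = 6.08e-14, edgeR).

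The exons of lin-3 (WBGene00002992, chromosome IV, 11054308 to 11063768, plus strand, WBcel235) overlap those of ttr-16 on the opposite strand over 209 bases. ttr-16, named because of this overlap, rose from 135 ± 4.09 to 335 ± 1.8 CPM (n = 3 per group), opposite to lin-3. The sources used here do not say whether counting used strand, and without strand the reads of the shared bases cannot be told apart. let-23 (WBGene00002299, chromosome II, 9197512 to 9207213) has no such neighbour among genes with counts.

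The FGF ligands differed from each other in level and in what the test found. let-756, the FGF needed for viability, stood at 6.42, 7.0 and 6.98 CPM in EV control and at 15.6, 16.2 and 17.7 CPM on nol-56 RNAi. It had the largest rise of the 10 genes, with a log2 fold change of 1.27 (standard error 0.08; adjusted p = 2.99e-12, edgeR). It lies on chromosome III, 6407129 to 6410033 (WBGene00002881), and shares 14 exonic bases with C05D11.5 on the opposite strand, a gene at 64 to 148 counts.

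egl-17, the FGF that attracts sex myoblasts, was near the limit of detection, with 14, 9 and 9 reads in EV control libraries 1 to 3 and 11, 8 and 9 reads on nol-56 RNAi. The corresponding levels were 0.603, 0.269 and 0.288 CPM and 0.442, 0.325 and 0.416 CPM, so the groups overlapped and EV control library 1 was the highest of all 6. The log2 fold change was 0.10 with a 95% interval of −0.70 to 0.91 (adjusted p = 0.801, edgeR). A change within that interval was not detectable at this depth. egl-17 lies on chromosome X, 489685 to 492318 (WBGene00001185).

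The FGF receptor gene egl-15 rose with its ligand gene let-756. Its level was 18, 19 and 20.2 CPM in EV control and 33.8, 36.4 and 38.2 CPM on nol-56 RNAi. The groups did not overlap, and egl-15 rose by 0.92 on the log2 scale (standard error 0.06; adjusted p = 4.85e-12, edgeR). The gene spans chromosome X, 11016400 to 11023421 (WBGene00001184), and is annotated with 13 transcripts that give 8 distinct coding sequences. The deposited counts are per gene, so changes in the choice between these transcripts were not analysed here.

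**Figure D2:**
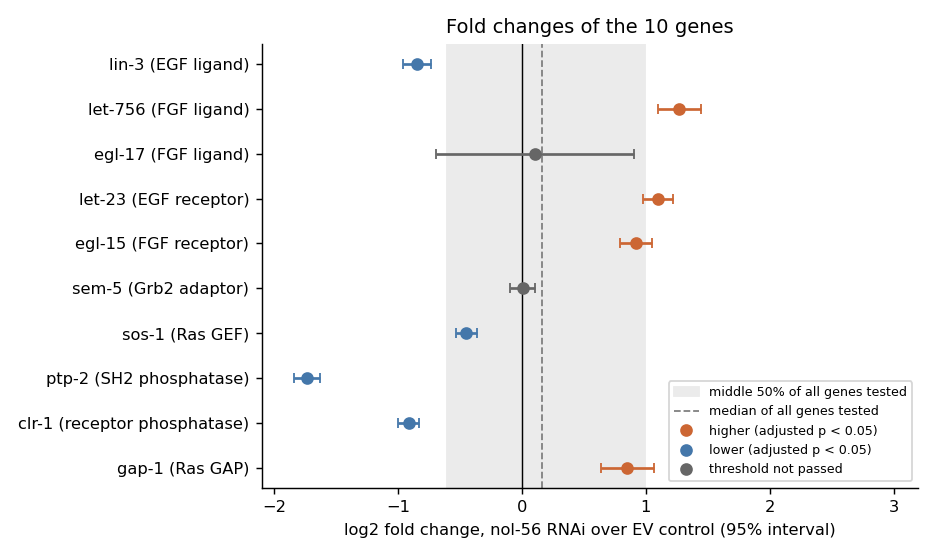
Log2 fold change of each gene with its 95% interval, coloured by call. The grey band spans the middle 50% of all genes tested (−0.61 to 0.99) and the dashed line is their median, 0.16. let-756 and let-23 lie above the band, and lin-3, clr-1 and ptp-2 below it.

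Of the shared intracellular partners, the adaptor gene sem-5 did not pass the test. SEM-5, the worm counterpart of Grb2, links phosphorylated receptors to SOS-1 through its SH2 and SH3 domains. It stood at 59.2, 55.7 and 58.0 CPM in EV control and at 55.0, 57.2 and 61.0 CPM on nol-56 RNAi, with overlapping groups. The log2 fold change was 0.004 with a 95% interval of −0.10 to 0.11 (adjusted p = 0.938, edgeR).

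The direction of sem-5 depended on the scaling of the libraries. It was called lower with RLE factors (−0.13, adjusted p = 0.0223, edgeR) and higher with upper-quartile factors (0.25, adjusted p = 6.8e-05, edgeR). On the authors' normalized scale, made with DESeq2 size factors per the file headers, sem-5 went from 1576 ± 69.0 to 1416 ± 76.8 (n = 3 per group), and there the groups did not overlap. For scale, RLE factors moved the median change over all genes by −0.14 and upper-quartile factors by 0.25. A change of factors moves all genes nearly alike, so relative to their median sem-5 stood at −0.16 with each, by construction. sem-5 lies on chromosome X, 7959453 to 7961723, on the minus strand (WBGene00004774).

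sos-1, the guanine nucleotide exchange factor that activates Ras, fell least among the genes called. It stood at 173, 165.5 and 164 CPM in EV control and at 119, 122 and 127.5 CPM on nol-56 RNAi, without overlap. It fell by 0.45 on the log2 scale (standard error 0.04; adjusted p = 1.08e-09, edgeR). In a test against a change of 1.5-fold in place of none it did not pass (adjusted p = 1, edgeR's glmTreat). In that stricter test the other 7 called genes passed, 4 higher and 3 lower, against 33.5% of all genes higher and 22% lower, 55.5% in all. sos-1 spans chromosome V, 4516944 to 4549291 (WBGene00004947), and shares 67 exonic bases with T28F12.1 on the opposite strand, a gene at 15 to 42 counts.

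gap-1, which encodes a GTPase-activating protein that switches Ras off, went the other way. It was at 4.83, 4.58 and 4.22 CPM in EV control and at 8.52, 8.13 and 7.81 CPM on nol-56 RNAi. Its counts were the lowest of the genes called, at 112 to 212 reads per library. The rise was 0.85 on the log2 scale (standard error 0.10; adjusted p = 1.04e-07, edgeR). gap-1 lies on chromosome X, 2192504 to 2195348 (WBGene00001515).

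Both phosphatase genes fell. ptp-2, the counterpart of the SH2-domain phosphatase SHP2, had the largest change of the 10 genes. It stood at 179, 163 and 162 CPM in EV control and at 47.4, 51.7 and 52.5 CPM on nol-56 RNAi. Its log2 fold change of −1.73 (standard error 0.05; adjusted p = 3.52e-18, edgeR) was lower than that of all but 3.8% of the genes tested. ptp-2 spans chromosome II, 5918647 to 5921617 (WBGene00004214).

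clr-1 encodes a receptor-type tyrosine phosphatase, known as a negative regulator of EGL-15. It stood at 303, 292 and 277 CPM in EV control and at 155, 156 and 151 CPM on nol-56 RNAi. The groups were far apart, and clr-1 fell by 0.92 on the log2 scale (standard error 0.04; adjusted p = 6e-15, edgeR). clr-1 lies on the same chromosome as ptp-2, at 5466358 to 5473816 (WBGene00000548).

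Among the 10 genes 3 changed by at least 2-fold, namely let-23, let-756 and ptp-2, where 37.2% of all genes tested were called with a change of that size. Between replicates, the coefficient of variation of the 9 genes other than egl-17 was 1.6% to 8.42% within a group. For egl-17 it was 48.5% in EV control and 15.6% on nol-56 RNAi.

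**Figure D3:**
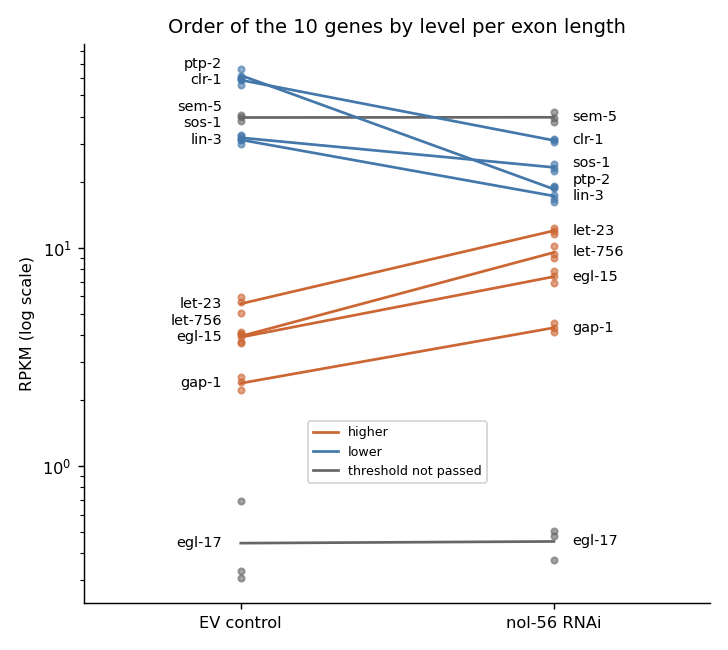
Level of each gene per kilobase of exon (RPKM, log axis) in the 3 EV control and the 3 nol-56 RNAi libraries, with lines joining the group means and colours for the call. The 4 genes that fell started above 30 RPKM and the 4 that rose below 6 RPKM.

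Levels of different genes were compared per length, as CPM per kilobase of annotated exon (RPKM). In EV control the order of mean levels was ptp-2 (61.8 RPKM), clr-1 (58.8), sem-5 (39.6), sos-1 (32.0), lin-3 (31.3), let-23 (5.55), let-756 (3.94), egl-15 (3.90), gap-1 (2.40) and egl-17 (0.444). The neighbours ptp-2 and clr-1, sos-1 and lin-3, and let-756 and egl-15 overlapped between libraries in this order, and the other neighbours did not. On nol-56 RNAi sem-5 came first at 39.7 RPKM, followed by clr-1 (31.1), sos-1 (23.4), ptp-2 (18.6) and lin-3 (17.3), and of these the neighbours ptp-2 and lin-3 overlapped. The lower 5 kept their order, with let-23 at 12, let-756 at 9.54, egl-15 at 7.39, gap-1 at 4.31 and egl-17 at 0.452 RPKM.

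The levels thus drew closer together. Leaving out egl-17, the highest mean was 25.8 times the lowest in EV control and 9.21 times on nol-56 RNAi. Over all genes tested the medians were above 0 in the lower bins by level and below 0 in the upper bins. Of 4 equal bins of the tested genes by mean RPKM over the 6 libraries, numbered from the lowest, the 4 genes that rose lay in bin 2 (2.03 to 10.5 RPKM). In that bin the median over all genes was 0.81 on the log2 scale. lin-3 and sos-1 lay in bin 3 (median −0.29) and ptp-2 and clr-1 in bin 4 (median −0.38), together with sem-5. egl-17 (0.10, not called) lay in bin 1, where the median was 0.71, below that of bin 2.

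Ratios within a library do not depend on library scaling, and 5 were computed per exon length. RNA of the ligand lin-3 stood at 6.47, 5.56 and 5.01 times that of its receptor let-23 in EV control libraries and at 1.40, 1.58 and 1.36 times on nol-56 RNAi. The ratio was 3.91 times higher in EV control, and the groups did not overlap. For the FGF pair the ratio of let-756 to egl-15 went from 1.01 ± 0.03 to 1.29 ± 0.03 (SD, n = 3 per group), 1.28 times higher on nol-56 RNAi, with both genes up. The receptor egl-15 stood at 0.0665 of its phosphatase clr-1 in EV control and at 0.238 on nol-56 RNAi, 3.57 times higher. The Ras activator sos-1 stood at 13.3 ± 0.60 times the Ras inhibitor gap-1 in EV control and at 5.44 ± 0.44 times on nol-56 RNAi. The adaptor sem-5 stood at 1.24 times sos-1 in EV control and 1.69 times on nol-56 RNAi. Each of the 5 ratios gave p = 0.1 in a two-sided exact permutation test, the smallest value that 3 libraries against 3 allow, and 0.1 after Benjamini-Hochberg adjustment over the 5.

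**Figure D4:**
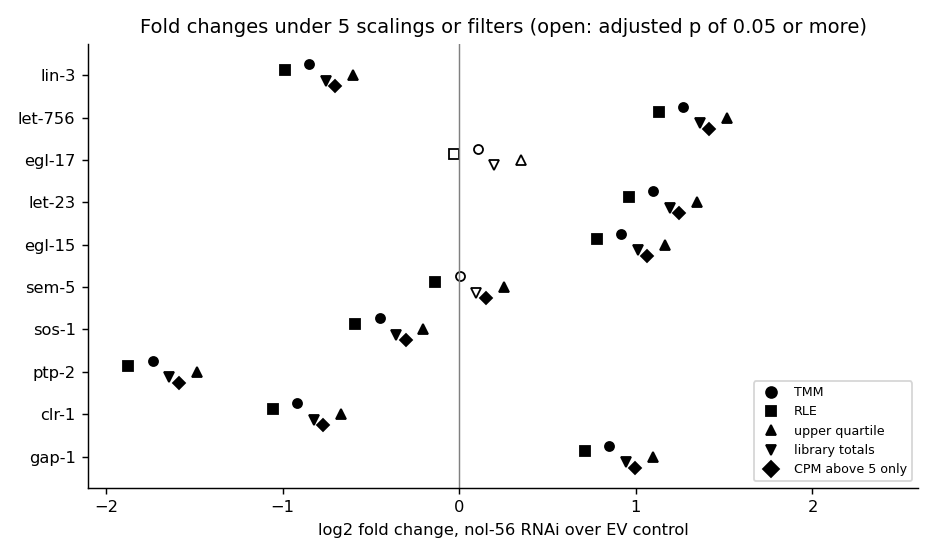
Log2 fold change of each gene with TMM, RLE and upper-quartile factors, with library totals, and with genes above 5 CPM alone. Filled symbols mark an adjusted p under 0.05. The 8 called genes keep their side of 0 in each, whereas sem-5 lies on both sides and egl-17, which the last filter removes, is never called.

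The other genes of the pathway moved in both directions. For the counts of each list below, 47.2% of all genes tested rose and 40.8% fell. Of 18 regulators of the EGF receptor found by name and tested, 9 rose and 8 fell (median log2 fold change 0.06, against 0.16 for all genes tested). Those that rose with the smallest p are genes of inositol trisphosphate signalling, which acts below LET-23 in ovulation. They were the receptor gene itr-1, from 123 ± 6.04 to 264 ± 3.76 CPM (1.1), the 5-phosphatase gene ipp-5 (1.21) and the kinase gene lfe-2 (0.71). Those that fell included lin-7, whose PDZ protein helps to place LET-23 in the membrane, from 59.6 ± 0.80 to 26.4 ± 0.70 CPM (−1.17; n = 3 per group). The clathrin adaptor gene unc-101 (−1.02) and lst-1 (−1.17), a target of Notch signalling, fell too. With upper-quartile factors 11 rose and 4 fell, and with RLE factors 7 rose and 9 fell. ipp-5 is also in the gonad sheath and spermatheca marker list, and without it 8 of 17 rose.

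Of 10 co-factors and effectors of the FGF receptor, 6 rose and 4 fell (median 0.31). The Klotho gene klo-1 (1.2), whose product is known in mammals as an FGF co-receptor, the scaffold gene soc-2 (0.71) and the perlecan gene unc-52 (0.47) rose. The heparan sulfate modifying enzymes hst-2 (−0.97), hst-6 (−0.95) and hse-5 (−0.75) fell. unc-52 is also in the body wall muscle marker list, and without it 5 of 9 rose.

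Among 13 Ras regulators and members of the ERK cascade, 9 fell and 3 rose (median −0.45). Over all genes tested 40.8% fell and 47.2% rose, with a median of 0.16. The ERK gene mpk-1 (−0.73), the Raf gene lin-45 (−0.60), the ERK phosphatase gene lip-1 (−0.90) and the PP2A subunit gene sur-6 (−0.71) fell. mek-2, which encodes the MEK kinase, fell (−0.31) and was not called with upper-quartile factors (−0.06, adjusted p = 0.145, edgeR). let-60, the Ras gene itself, had a log2 fold change of −0.09 (adjusted p = 0.0622, edgeR) and was called lower with RLE factors (−0.23) and higher with upper-quartile factors (0.16). The Ras exchange factor gene rgef-1 rose from 3.73 ± 0.22 to 7.82 ± 0.45 CPM (1.06; n = 3 per group). ksr-1 (0.23), a scaffold gene of the cascade, and sur-5 (0.18) rose with TMM factors and were not called with RLE factors (adjusted p = 0.156 and 0.513, edgeR).

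Of 14 genes acting in the nucleus or as outputs of ERK signalling, 7 fell and 5 rose (median −0.23, or 0.02 with upper-quartile factors). The ETS factor gene lin-1 (1.00), the metalloprotease gene zmp-1 (0.92) and the LIM homeobox gene lin-11 (0.82) rose. The Mediator gene sur-2 (−1.17), lin-25 (−1.0) and the zinc finger gene eor-1 (−0.93) fell. The vulva and uterus marker list holds 3 of these genes, zmp-1 and lin-11 among them, and without them 3 of 11 rose and 6 fell.

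**Figure D5:**
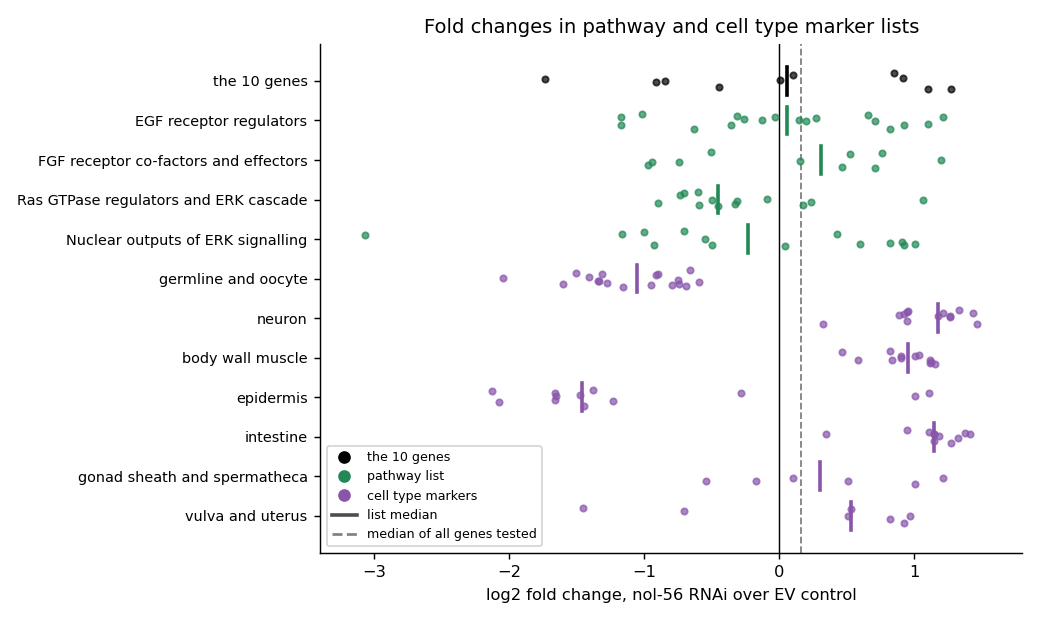
Log2 fold change of each tested gene (points) in the 10 genes, 4 pathway lists and 7 cell type marker lists, with list medians as bars and the median of all genes tested, 0.16, as a dashed line. Germline markers all lie below 0 and neuron, muscle and intestine markers all above it.

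Markers of cell types moved in the same libraries. All 18 germline and oocyte markers fell (median −1.05), and their summed level went from 11840 to 13090 CPM in EV control to 5694 to 5977 CPM on nol-56 RNAi. All 13 neuron markers rose (median 1.17), from a sum of 612.5 to 640.2 CPM to one of 1244 to 1281 CPM, and so did all 12 body wall muscle markers (median 0.95) and all 11 intestine markers (median 1.15). Muscle markers summed to 3949 to 4276 CPM in EV control and to 7750 to 7822 CPM on nol-56 RNAi, and intestine markers to 42420 to 43840 CPM and 96860 to 111200 CPM. The largest part of both muscle sums was unc-54, named after its values were seen, with means of 1184 and 2091 CPM. Its promoter drives the transgene, and whether transgene reads were counted to unc-54 was not tested. Most of the intestine sum came from vit-6 and vit-2, named after their values were seen. Their means went from 27270 to 65710 CPM and from 13810 to 34630 CPM, so this sum says little about the other intestine markers.

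Among the lists for tissues in which EGF signalling is known to act, those of the gonad and vulva held changes in both directions. Of 6 gonad sheath and spermatheca markers 3 rose and 2 fell, with a sum of 1084 to 1150 CPM in EV control and 892 to 924 CPM on nol-56 RNAi. Most of this sum was fln-1, named after its values were seen, which fell from a mean of 903 to 620 CPM. Of 7 vulva and uterus markers 5 rose and 2 fell, with sums of 93.2 to 99.1 CPM and 90.4 to 93.8 CPM. The largest parts of these sums were cdh-3 and bam-2, named after their values were seen. The mean of cdh-3 fell from 42.3 to 15.4 CPM and that of bam-2 rose from 35.5 to 51.5 CPM. With DESeq2 3 vulva and uterus markers rose and 2 fell. With upper-quartile factors or library totals 4 sheath and spermatheca markers rose and 1 fell. Of 12 epidermis markers 10 fell and 2 rose, and their median of −1.46 was the lowest of the 7 marker lists. Their sums overlapped, at 536 to 687 CPM and 544 to 574 CPM. The largest part of both was the collagen gene rol-6, named after its values were seen. It rose from 169 ± 5.49 to 364 ± 15.9 CPM (SD, n = 3 per group), against the direction of most of the list.

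The falls of lin-3 (−0.85), clr-1 (−0.92) and ptp-2 (−1.73) lay within the range of the germline markers, −2.04 to −0.59, and that of sos-1 (−0.45) outside it. All 4 falls lay within the wide range of the epidermis markers, −2.13 to 1.11, whose upper end is rol-6. The rises of egl-15, let-23, let-756 and gap-1 lay within the ranges of the neuron markers, 0.32 to 1.46, and of the intestine markers, 0.35 to 1.41. All but let-756 also lay within that of the body wall muscle markers, 0.47 to 1.15. Ranked by log2 fold change over all genes tested, the germline range ran from percentile 2.6 to 25.7 and the epidermis range from 2.4 to 80.7. The neuron range ran from percentile 53.6 to 94.3, the intestine range from 54.2 to 93.1 and the muscle range from 56.9 to 82.9. Each range thus held many other genes, and lying within it does not tie a gene to that tissue. The part of tissue composition in these changes was not tested.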

How the data were processed

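Whole-worm polyA RNA of 3 EV control and 3 nol-56 RNAi pools was analysed from 1 table. The authors deposited raw read counts of each gene, without scaling, and a normalized signal, which is the count over a size factor (0.832 to 1.23). WBcel235, DESeq2 1.36.0, HTSeq 2.01, TopHat2 2.1.1 and cutadapt 2.10 appear in the submitters' processing notes, without roles.

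Counts were tested with edgeR 4.0.16 in R 4.3.3: filterByExpr defaults, TMM factors and the quasi-likelihood test with the group as the only term. Standard errors were derived from the F statistic. CPM uses TMM-scaled totals. RPKM divides CPM by the annotated exon length (Ensembl 115, WBcel235). No library repeats another: chi-square over degrees of freedom was 2.06 to 6.3 between replicates. Intervals cover only the spread between these libraries. The main test was also run on simulated counts in which 14477 of 14677 genes were unchanged. It recovered 27 of 50 genes changed 1.25-fold, 39 of 50 at 1.5-fold, 48 of 50 at 2-fold and 48 of 50 at 4-fold. Of the unchanged genes 13 were called. As 88% of genes were called in the real libraries, this simulation does not cover the choice of scaling factors.

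The 10 genes and all lists were chosen with earlier results of these data known. The text names the 10 genes, nol-56, up to 3 risers and 3 fallers per pathway list by smallest p, and let-60, lin-45, mek-2 and mpk-1. One list name, lst-3, matched no gene name. Alternatives were RLE and upper-quartile factors, library totals, no filter, genes above 5 CPM in at least 3 libraries, DESeq2 1.42.0, limma-voom (limma 3.58.1), glmTreat, a replicate block, each library left out, and the 20 most abundant genes removed. Counts of pathway and marker lists under other scalings were added after seeing the data. So were counts of pathway lists without genes shared with a marker list.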

Additional observations from a re-analysis of the deposited data

How the results depend on the processing

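lin-3, let-23, egl-15, let-756, ptp-2, clr-1 and gap-1 kept their direction and passed the threshold under all 16 alternatives. sos-1 did so too except against a fold of 1.5 (−0.45, adjusted p = 1, glmTreat), and ranged from −0.59 to −0.20. sem-5 was lower with RLE factors (−0.13) and DESeq2 (−0.13, adjusted p = 0.0409), and higher with upper-quartile factors (0.25) and genes above 5 CPM alone (0.15, adjusted p = 0.00749, edgeR). Without 1 library it ranged from −0.042 to 0.035 and was not called. egl-17 stood at −0.03 with RLE factors and −0.075 with DESeq2. Without 1 library it ranged from −0.11 to 0.49, the latter without EV control library 1 (adjusted p = 0.264, edgeR). With genes above 5 CPM alone, each of the 10 genes that this filter kept moved up by a like amount. For example, lin-3 went from −0.85 to −0.70, sem-5 from 0.004 to 0.15 and ptp-2 from −1.73 to −1.59. In that fit library totals and TMM factors were computed anew from the kept genes alone. Their part in these differences was not tested. With DESeq2, RLE or upper-quartile factors the values of all genes moved together. In all, 53.6% of calls were higher with TMM, 49.6% with RLE and 62.4% with upper-quartile factors. Against 6927 higher and 5990 lower genes, a separate fit to genes above 5 CPM alone, with fewer genes tested, called 4508 higher, and the test against 1.5-fold called 3236 lower. Without 1 library 6656 to 6856 genes were called higher and 5861 to 5976 lower. The replicate block gave 6893 higher and 5964 lower genes and changed no call of the 10 genes. Of the 10, 4 or 5 were higher and 3 to 5 lower under every alternative. Libraries with the same number did not deviate together (r −0.035 to 0), so the numbers were not taken as pairs. Depth limits egl-17 most, with 32 and 28 reads per group. Among pathway lists, 4 EGF receptor regulators fell with upper-quartile factors, 1 gene of the Ras and ERK list rose with RLE factors and 1 with DESeq2, and 3 nuclear outputs rose without genes of a marker list. As shares of library totals, summed markers on nol-56 RNAi stood at 0.5 (germline), 2.16 (neuron), 2.02 (muscle), 0.867 (sheath and spermatheca) and 1.02 (vulva and uterus) times EV control, the last on the other side of 1 from its 0.957 with TMM.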
